A study of Mus musculus with 6 samples.

Results

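Interferon-stimulated genes are the genes that cells switch on when they sense interferons, and 34 of them were followed here in mouse embryonic fibroblasts, in Sertoli-like cells made from such fibroblasts with small molecules, and in cultured Sertoli cells. The 34 were listed by symbol and matched by Entrez Gene identifier, and all 34 were found among the 20007 identifiers of the 6 libraries. All 34 also passed the filter on low counts that left 15272 genes for testing. The list follows what is known of the pathway and was chosen with earlier results of these data known.

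All cells came from KM mice, and each group held 2 libraries of total RNA sequenced on the BGISEQ-500 platform. MEFs were fibroblasts of embryos aged 13.5 days post coitum by their labels, although the culture protocol also allows an earlier day. CiSCs started as MEFs of that labelled age, which were passaged, seeded in wells and induced a day later with compounds that no label names. MSCs, the Sertoli cells that nurse germ cells in the seminiferous tubule, were prepared from the testis and carry the age label of postnatal day 60. All of these cells were grown in dishes. No group is described as passaged MEFs without compounds, so passage and compounds cannot be told apart in the comparison of CiSCs with MEFs, nor can age, tissue and cell type in that of MSCs with MEFs. Nothing in the labels tells whether replicate libraries are separate cultures, so every p-value below reflects library-to-library spread that may be technical.

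Type I interferons bind a receptor made of Ifnar1 and Ifnar2, and the kinases Jak1 and Tyk2 then activate the transcription factor complex ISGF3, to which Stat2 and Irf9 belong. ISGF3 binds a DNA element with paired GAAA repeats in the promoters of interferon-stimulated genes, whose products sense, degrade or block viral RNA and proteins. Some of these products (Stat2, Irf9, Irf7, the RNA sensors) belong to the pathway itself, and others (Usp18) damp it. In the testis, Sertoli cells are known to mount such a response to virus and double-stranded RNA.

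The paired GAAA element was looked for in the promoters of the list, because it is the element that ISGF3 binds. RefSeq promoters of assembly GRCm38.p6, a later build than that of the counts, were at hand for 25 of the 34 genes. The letters GAAA, then 2 bases of any kind, then GAAA, on either strand and with overlapping matches allowed, stood in the 250 bases before the start of 10 of the 25 (40.0%, Wilson 95% interval 23.4% to 59.3%). The same holds for 3.46% of all 27025 genes with a promoter entry. The longer core, AGTTTC followed by 2 bases of any kind and TTTC, every match of which is also a match of the shorter one, was present in 6 of the 25 (24.0%) and in 0.255% of all genes. The 10 were Ifit1, Ifit3, Oas1a, Oas3, Isg15, Rsad2, Stat2, Bst2, Gbp2 and Gbp3. Of these, 6 stretches are shown because they come from families on which the results turn; they read 5′ to 3′ on the gene's strand, with matches in capitals and 15 bases on each side where these lie before the start.
Isg15 (chr4:156200860-156200911, minus strand): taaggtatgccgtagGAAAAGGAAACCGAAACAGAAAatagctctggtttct
Ifit1 (chr19:34640770-34640828, plus strand): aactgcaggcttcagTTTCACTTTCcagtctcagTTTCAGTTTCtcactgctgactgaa
Ifit3 (chr19:34583358-34583431, plus strand): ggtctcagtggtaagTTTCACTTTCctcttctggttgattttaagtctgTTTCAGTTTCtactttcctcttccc
Oas1a (chr5:120907526-120907560, minus strand): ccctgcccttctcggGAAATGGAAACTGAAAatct
Oas3 (chr5:120777710-120777749, minus strand): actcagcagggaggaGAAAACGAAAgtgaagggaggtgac
Gbp2 (chr3:142620589-142620628, plus strand): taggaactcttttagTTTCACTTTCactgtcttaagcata
Isg15 held 3 overlapping matches, starting 78, 72 and 66 bases before the start. Ifit1 and Ifit3 each held 2 separate ones, and the matches of Oas1a began 20 and 14 bases before the start. A match is a stretch of letters and not a measured binding site. That of Stat2 began 222 bases before the start of its entry. The bases at that start were not found near the start of any GENCODE transcript of Stat2. The count also depends on the window, since over all 300 bases of the entries 14 of the 25 (56.0%) and 3.99% of all genes held a match. Ifih1, Ddx58, Ifitm3 and Eif2ak2 had one only at or after the start. Of the 10 genes with a match in the 250 bases, 5 were higher in MSCs than in MEFs and 7 were lower in CiSCs than in MEFs. For the 15 without one there, the numbers were 11 and 6, and for the 9 with no promoter entry, 6 and 7. Of all tested genes 22.5% were higher in MSCs and 21.3% lower in CiSCs.

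Levels are given as CPM, which are counts scaled to the size of their library, and differences as log2 fold changes ± standard error with an adjusted p from edgeR's quasi-likelihood test. Each library held between 19294671 and 20418587 expected counts. After TMM scaling of the library sizes, 1 read corresponded to 0.0468 to 0.0543 CPM. The first comparison asked how the list stood in Sertoli cells against fibroblasts. In MSCs, 22 of the 34 genes were higher than in MEFs (64.7%, against 22.5% of all 15272 tested genes), and 0 were lower (against 20% of all genes). At an unadjusted p under 0.05, 1 gene was lower by edgeR and 1 by DESeq2. With adjusted p under 0.05, DESeq2 called 0 lower. The median log2 fold change of the 34 was 1.04, against 0.01 over all tested genes, and 17 of the 22 were at least 2-fold higher (16.4% of all genes). The largest increase was that of Oasl2 at 5.68 on the log2 scale, followed by Zbp1 at 3.05, Oas2 at 2.90 and Irf7 at 2.80. Without the second MSC library, Ifit1, Irf9, Oasl1, Usp18, Ddx58, Rtp4, Parp14 and Trim25 lost their call. Under each of the 15 alternative settings tried, 13 genes passed. The 13 were Oas2, Oas3, Oasl2, Gbp2, Gbp3, Stat2, Irf7, Ifih1, Zbp1, Eif2ak2, Herc6, Ifi44 and Xaf1. Calls under every setting were not counted over all genes, here or in the comparisons below. Without the first MEF library, Bst2, Ifi35 and Ifit3 stood at -0.59, -0.76 and -0.63 in MSCs against MEFs. Without the second, they stood at 0.55, 0.085 and 0.013.

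CiSCs were compared with MEFs to see how the list stood after the induction. Here 20 of the 34 genes were lower in CiSCs (58.8%, against 21.3% of all tested genes) and 1, Oasl2, was higher (against 19.6% of all genes). The median log2 fold change was -1.05, against -0.00 over all tested genes, and 17 of the 20 were at least 2-fold lower (14.2% of all genes). Oas3 fell by 4.75, Zbp1 fell by 3.92, Oas1a fell by 3.46 and Parp14 fell by 2.97 on the log2 scale. Ifit1, Ifit3, Ifi44, Stat2, Usp18, Rtp4 and Xaf1 lost their call when either CiSC library was left out. Gbp2, Oasl1 and Trim25 lost it only without the first, and Cmpk2 only without the second. Without the second MEF library, Ifi27 joined Oasl2 as higher. Dhx58, Herc6, Oas1a, Oas2, Oas3, Oasl2, Parp14, Rsad2 and Zbp1, 9 genes in all, passed under each of the 15 alternatives.

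The comparison of CiSCs with MSCs set the induced cells beside the cells they were meant to resemble. In CiSCs 28 of the 34 genes were lower (82.4%, against 25.1% of all tested genes) and 0 were higher (against 17.7%). At an unadjusted p under 0.05, 1 gene was higher by edgeR and 1 by DESeq2. With adjusted p under 0.05, DESeq2 called 0 higher. The median log2 fold change was -2.49, against -0.03 over all tested genes, and 25 of the 28 were at least 2-fold lower (19.4% of all genes). Oas3 and Zbp1 lay furthest apart, both at -6.97 on the log2 scale. Of the 28, 23 passed under each of the 15 alternatives, and Irf9, Ddx58 and Isg15 lost their call when any CiSC or MSC library was left out. The comparisons share libraries, so their counts do not add to one another as evidence. In 21 of the 34 genes both MSC libraries lay above both MEF libraries, and these above both CiSC libraries, an order found in 7.11% of all tested genes. Both MSC libraries lay above the 4 others for 26 genes (24.7% of all tested genes), and both CiSC libraries lay below the 4 others for 26 (23.3% of all tested genes).

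**Figure D1:**
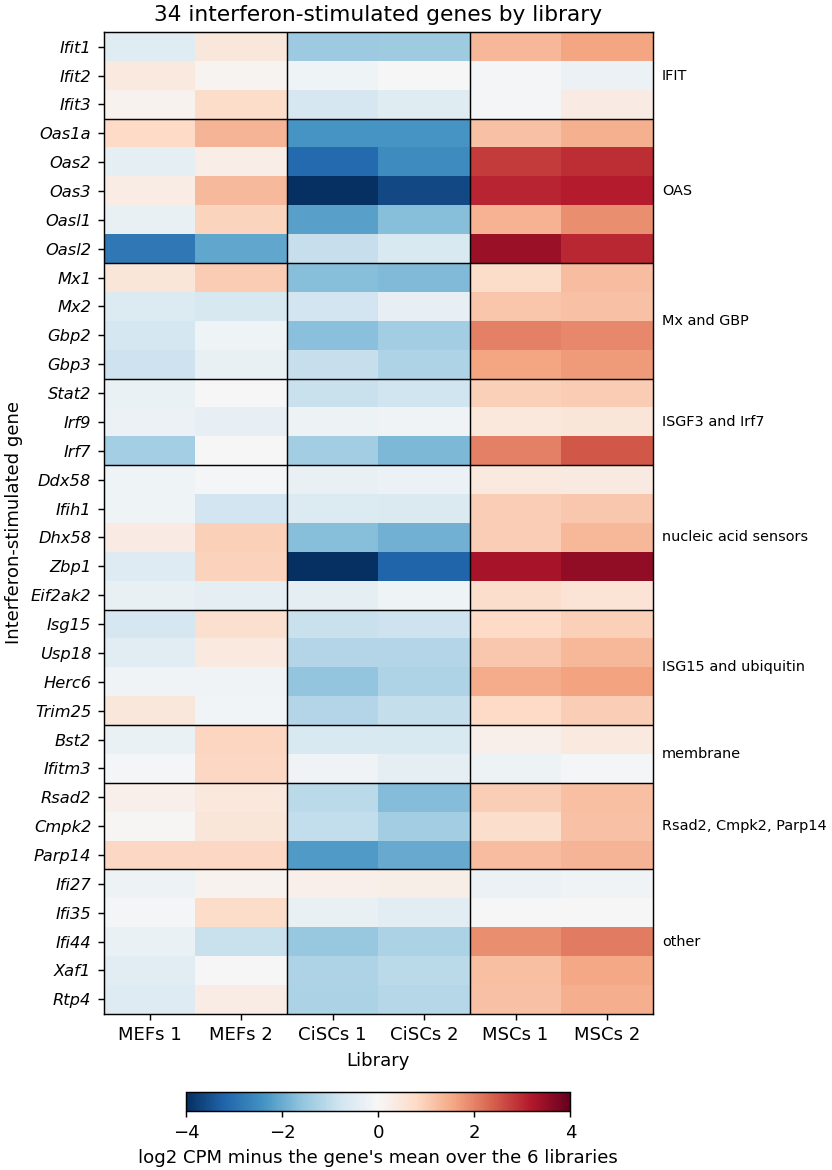
Level of each of the 34 interferon-stimulated genes (rows, grouped by role) in the 6 libraries (columns), as log2 CPM minus the gene's mean over the libraries; red is above and blue below the mean, and the colours end at 4 in either direction. Most rows are red in both MSC libraries and blue in both CiSC libraries; Oasl2 is lowest in MEFs, and Ifit2, Ifi27 and Ifitm3 are nearly flat.

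The oligoadenylate synthetases bind double-stranded RNA, and the catalytic ones make the second messenger that activates RNase L. Of the 5 on the list, 4 were higher in MSCs than in MEFs (22.5% of all tested genes), and 4 were lower and 1 higher in CiSCs than in MEFs (21.3% and 19.6%). Oas2 stood at 16.9 and 26.8 CPM in the MEF libraries, 2.60 and 3.89 in CiSCs, and 153 and 173 in MSCs. The 3 groups did not overlap, and both differences from MEFs passed, at 2.90 ± 0.28 for MSCs (adjusted p = 0.000368) and -2.75 ± 0.30 for CiSCs (adjusted p = 0.000665). Its neighbour Oas3, with no other protein-coding gene between them in the RefSeq table, showed the same order, with 6.50 and 13.0 CPM in MEFs, 0.297 and 0.429 in CiSCs, and 44.1 and 46.2 in MSCs. Oas1a differed from them in that MEFs and MSCs overlapped. It stood at 27.8 and 41.4 CPM in MEFs, 36.8 and 42.9 in MSCs (0.20 ± 0.21, adjusted p = 0.467), and 3.13 and 3.15 in CiSCs (-3.46 ± 0.24 against MEFs, adjusted p = 0.000107).

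Oasl2 and Oasl1 encode synthetase-like proteins with ubiquitin-like domains and are direct neighbours in the RefSeq table, but their orders differed. Oasl2 was at 25.2 and 43.6 CPM in MEFs, 97.2 and 120.5 in CiSCs, and 2032 and 1504 in MSCs. It was the one gene of the list that rose in CiSCs against MEFs (1.66 ± 0.30, adjusted p = 0.00558), and it was lower there than in MSCs (-4.02 ± 0.32, adjusted p = 0.000152). Oasl1 was at 2.63 and 5.87 CPM in MEFs, 0.716 and 0.982 in CiSCs, and 8.45 and 11.6 in MSCs. It thus fell in CiSCs (-2.31 ± 0.47, adjusted p = 0.00898) where Oasl2 rose. The smaller increase of Oasl1 in MSCs (1.24 ± 0.40, adjusted p = 0.0467) did not pass under 10 of the 15 alternatives. The paired GAAA letters were not found in the 250-base window of either gene.

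**Figure D2:**
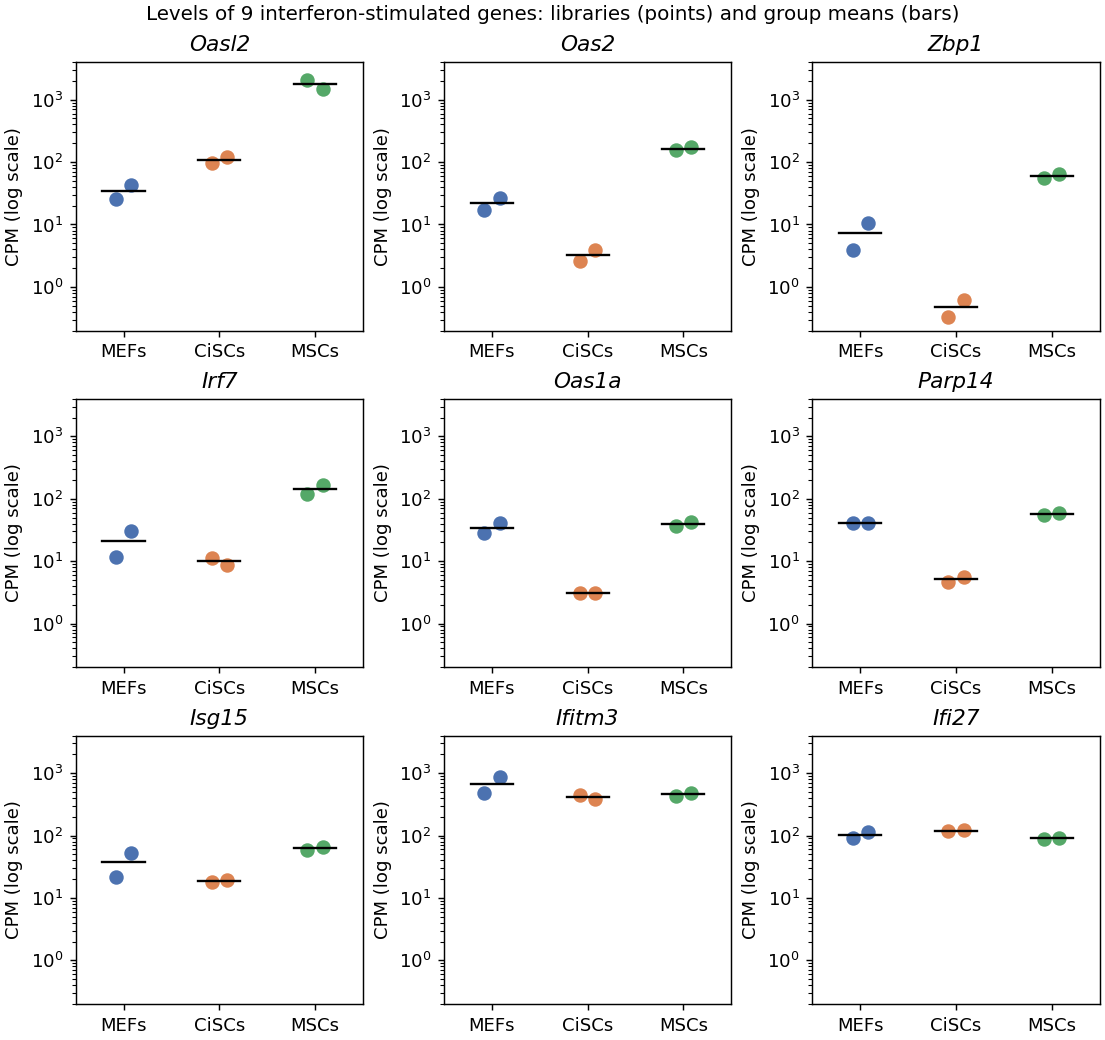
CPM (log scale) of 9 interferon-stimulated genes in the libraries (points, 2 per group) with the group means (bars). Oasl2 reaches 2032 and 1504 CPM in MSCs, Oas2, Zbp1 and Irf7 are highest in MSCs, Oas1a and Parp14 are low in CiSCs, and Ifitm3 and Ifi27 differ little between groups.

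The IFIT proteins bind viral RNA through tetratricopeptide repeats, and the 3 genes lie close together on one chromosome without sharing a pattern. Ifit1 stood at 15.6 and 29.3 CPM in MEFs, 7.80 and 8.12 in CiSCs, and 53.6 and 64.5 in MSCs. It rose in MSCs (1.40 ± 0.29, adjusted p = 0.00948) and fell in CiSCs (-1.49 ± 0.30, adjusted p = 0.00909), with no overlap between groups. Ifit3 was at 24.4 and 37.3 CPM in MEFs, 13.9 and 16.1 in CiSCs, and 21.5 and 27.8 in MSCs. In the main edgeR fit only its fall in CiSCs against MEFs passed (-1.04 ± 0.25, adjusted p = 0.0161). DESeq2, and edgeR with only CiSCs and MSCs in the fit, also called it in CiSCs against MSCs. Ifit2 passed in no comparison of the main fit, with all 6 libraries between 20.5 and 31.4 CPM. The calls of Ifit1 and Ifit3 in CiSCs against MEFs were lost without either CiSC library, and that of Ifit1 in MSCs without the second MSC library.

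The Mx and guanylate-binding proteins are large GTPases that act on viral particles and on the membranes around pathogens. Gbp2 was at 9.31 and 13.3 CPM in MEFs, 4.77 and 5.75 in CiSCs, and 61.4 and 57.6 in MSCs. It was higher in MSCs than in MEFs by 2.40 ± 0.21 (adjusted p = 0.000244) and lower in CiSCs than in MEFs (-1.10 ± 0.21, adjusted p = 0.0077). Gbp3 was likewise high in MSCs, at 32.6 and 35.6 CPM against 6.06 and 8.85 in MEFs, while its CiSC values of 5.72 and 4.59 CPM did not pass against MEFs (adjusted p = 0.116). The Mx genes were low everywhere. Mx1, which carries inactivating deletions in many laboratory mouse strains, stood at 1.97 and 2.87 CPM in MEFs, 0.429 and 0.414 in CiSCs, and 2.32 and 3.32 in MSCs, and its fall in CiSCs passed (-2.49 ± 0.40, adjusted p = 0.00336). Mx2 was between 1.37 and 1.85 CPM in MEFs and CiSCs and at 4.95 and 5.17 in MSCs (1.74 ± 0.27 against MEFs, adjusted p = 0.00316).

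Of the factors that drive the response, Stat2 stood at 61.9 and 73.1 CPM in MEFs, 40.5 and 43.3 in CiSCs, and 144 and 149.9 in MSCs. All 3 of its differences passed, with 1.12 ± 0.14 for MSCs against MEFs (adjusted p = 0.00105) and -0.69 ± 0.14 for CiSCs against MEFs (adjusted p = 0.00847). Its partner Irf9 was flatter, at 39.0 and 36.8 CPM in MEFs, 39.6 and 41.7 in CiSCs, and 61.9 and 64.5 in MSCs. MEFs and CiSCs did not differ past the threshold for Irf9 (0.10 ± 0.13, adjusted p = 0.554), while MSCs lay above MEFs (0.74 ± 0.13, adjusted p = 0.00423). Irf7, which amplifies interferon production once it has itself been induced, differed more. It was at 11.5 and 29.99 CPM in MEFs, 11.4 and 8.56 in CiSCs, and 121 and 168 in MSCs, a rise of 2.80 ± 0.45 in MSCs (adjusted p = 0.00341). The MEF libraries were far apart for Irf7, and its difference between CiSCs and MEFs did not pass by edgeR (-1.06 ± 0.44, adjusted p = 0.104), although it did by DESeq2.

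Of the 5 nucleic acid sensors, 4 were higher in MSCs than in MEFs (22.5% of all tested genes) and 2 were lower in CiSCs than in MEFs (21.3% of all tested genes). Ddx58 encodes RIG-I, the sensor of RNA ends, and stood at 81.2 and 89.6 CPM in MEFs, 74.7 and 77.6 in CiSCs, and 120.0 and 116 in MSCs (0.47 ± 0.12 for MSCs against MEFs, adjusted p = 0.0219). Ifih1, which encodes the long double-stranded RNA sensor MDA5, was at 18.5 and 12.4 CPM in MEFs, 14.3 and 13.9 in CiSCs, and 41.0 and 43.7 in MSCs. Neither of these sensors passed between CiSCs and MEFs (adjusted p = 0.316 and 0.646), and the call of Ddx58 in MSCs was lost without any one of the CiSC or MSC libraries. Dhx58, which encodes their regulator LGP2, behaved otherwise. It was at 9.41 and 14.7 CPM in MEFs, 2.34 and 2.01 in CiSCs (-2.47 ± 0.29, adjusted p = 0.000936), and 15 and 18.9 in MSCs (0.49 ± 0.26, adjusted p = 0.171).

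Zbp1, a sensor of Z-form nucleic acid that can trigger cell death, had one of the widest ranges. It stood at 3.89 and 10.6 CPM in MEFs, 0.334 and 0.608 in CiSCs, and 55 and 65.2 in MSCs. The increase in MSCs was 3.05 ± 0.44 (adjusted p = 0.00218) and the decrease in CiSCs -3.92 ± 0.60 (adjusted p = 0.00282). Eif2ak2 encodes the kinase PKR, which halts translation on sensing double-stranded RNA. Its levels of 50.9 and 48.2 CPM in MEFs and 48.1 and 55.8 in CiSCs overlapped, and both MSC libraries were higher, at 102 and 91.2 CPM (0.96 ± 0.14 against MEFs, adjusted p = 0.00241).

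Isg15 encodes a ubiquitin-like protein that is attached to other proteins during the response, and its promoter held the run of 3 matches shown above. Its level was 21.2 and 52.7 CPM in MEFs, 18.2 and 19.28 in CiSCs, and 59.3 and 66.0 in MSCs. The groups did not overlap, but the MEF libraries were 2.48-fold apart and neither difference from MEFs passed (0.76 ± 0.38 for MSCs, adjusted p = 0.153, and -0.98 ± 0.39 for CiSCs, adjusted p = 0.0882). DESeq2 called the difference between CiSCs and MEFs. Usp18, the protease that removes Isg15 and dampens receptor signalling, was at 10.7 and 19.4 CPM in MEFs, 6.54 and 6.55 in CiSCs, and 30.7 and 36.8 in MSCs. Both of its differences from MEFs passed (1.16 ± 0.28, adjusted p = 0.0167, and -1.20 ± 0.29, adjusted p = 0.0179), although each was lost in part of the fits with a library left out. Herc6, the main mouse ligase for Isg15, was more even within groups, at 10.5 and 10.3 CPM in MEFs, 3.82 and 4.91 in CiSCs, and 31.7 and 34.7 in MSCs (1.67 ± 0.17 and -1.25 ± 0.18 against MEFs, adjusted p = 0.00051 and 0.00231). Trim25, a ubiquitin ligase that acts with RIG-I, was at 28.3 and 19.0 CPM in MEFs, 9.08 and 10.8 in CiSCs, and 36.0 and 41.0 in MSCs, and its increase in MSCs was lost under several alternatives.

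Rsad2 (viperin, a radical enzyme that makes a chain-terminating nucleotide) and Cmpk2 (a nucleotide kinase that feeds it) are direct neighbours in the RefSeq table. Rsad2 was at 3.69 and 4.37 CPM in MEFs, 1.53 and 0.982 in CiSCs, and 6.43 and 7.44 in MSCs. Cmpk2 was at 3.49 and 4.73 CPM in MEFs, 1.72 and 1.31 in CiSCs, and 5.58 and 7.61 in MSCs. Both fell in CiSCs against MEFs (-1.68 ± 0.30 and -1.44 ± 0.31, adjusted p = 0.00519 and 0.0114), and neither passed in MSCs against MEFs (adjusted p = 0.0563 and 0.0993). Parp14, an ADP-ribosyltransferase of antiviral and macrophage responses, was near 40.8 CPM in both MEF libraries, at 4.72 and 5.66 in CiSCs and at 54.3 and 58.7 in MSCs. Its fall in CiSCs had the smallest adjusted p of the list in that comparison (-2.97 ± 0.15, adjusted p = 3.25e-05), whereas its difference in MSCs was small (0.47 ± 0.14, adjusted p = 0.0333). The call of Parp14 in MSCs was lost under several alternatives, among them the replicate block and the fit with only the 2 groups compared.

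Ifitm3 and Bst2, which encode antiviral membrane proteins, passed in no comparison by the main edgeR fit. DESeq2 called both in CiSCs against MEFs, and Bst2 also in CiSCs against MSCs. With only CiSCs and MSCs in the fit, edgeR also called Bst2 lower in CiSCs. Ifitm3, which hinders the entry of viruses from endosomes, was at 481 and 879 CPM in MEFs, 448 and 388 in CiSCs, and 436 and 478 in MSCs. Bst2 encodes tetherin, which holds budding virus at the surface, and was at 116 and 251 CPM in MEFs, 90.1 and 91.4 in CiSCs, and 160.5 and 180.2 in MSCs. Both genes were far apart between the MEF libraries. The value of Bst2 in MSCs against MEFs, -0.11 with all libraries, was 0.55 without the second MEF library and -0.59 without the first. Among the others, Ifi44 rose in MSCs by 2.52 ± 0.24 (adjusted p = 0.000336), from 10.6 and 6.97 CPM in MEFs to 46.3 and 54.2. Xaf1, a factor that promotes apoptosis, was at 22.5 and 31.1 CPM in MEFs, 13.0 and 14.8 in CiSCs, and 72 and 91.3 in MSCs, and Rtp4, a chaperone-like protein, at 15.5 and 27.3, 9.16 and 9.94, and 49.4 and 59.7 CPM. Both passed in each comparison, but their calls in CiSCs against MEFs were lost without either CiSC library.

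Ifi35 and Ifi27 were called in no comparison by the main edgeR fit. With only CiSCs and MSCs in the fit, edgeR called Ifi35 lower and Ifi27 higher in CiSCs. Ifi35, which binds the signalling adaptor Nmi, was at 34.6 and 60.8 CPM in MEFs, 29.9 and 27.1 in CiSCs, and 36.9 and 36.4 in MSCs. Both CiSC libraries lay below the 4 others, and DESeq2 called Ifi35 in CiSCs against MEFs. Ifi27, a mitochondrial protein gene, was the one member with both CiSC libraries above the 4 others, at 118 and 122 CPM against 90.3 and 113 in MEFs and 88.3 and 92.6 in MSCs. That difference was small and in the main fit passed neither against MEFs (0.24 ± 0.15, adjusted p = 0.231) nor against MSCs (0.41 ± 0.15, adjusted p = 0.0645).

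**Figure D3:**
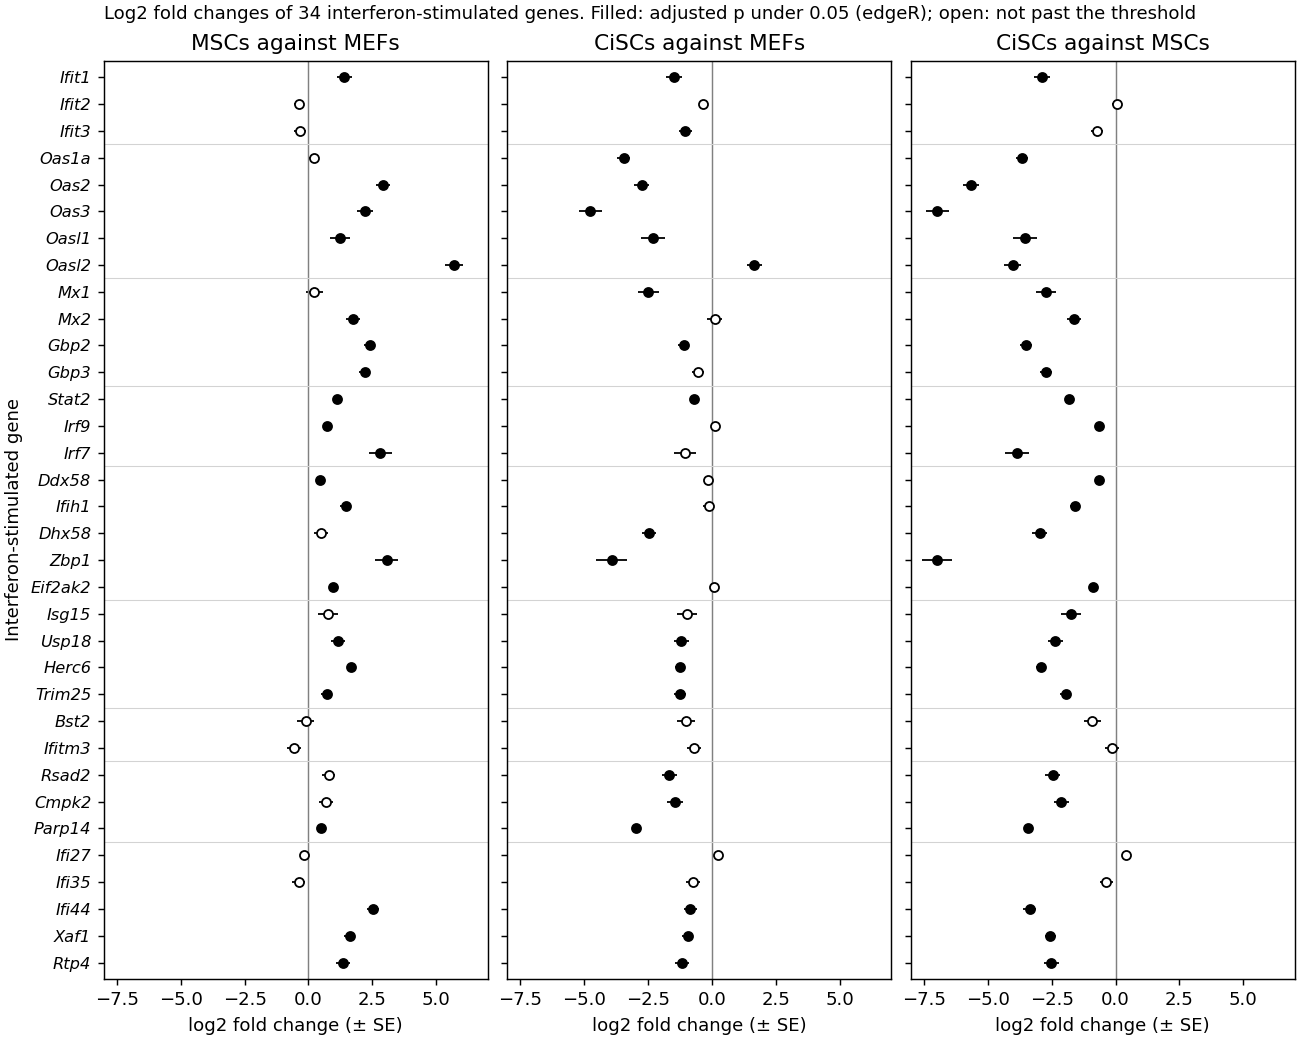
Log2 fold change ± standard error of each gene in the 3 comparisons; filled points passed an adjusted p under 0.05 by edgeR and open points did not. In MSCs against MEFs 22 points are filled and all lie above 0, in CiSCs against MEFs 20 of the 21 filled points lie below 0 with Oasl2 above, and in CiSCs against MSCs 28 are filled and all lie below 0.

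Per kilobase of exon (union of GENCODE M21 exons, so that genes can be set side by side), Ifitm3 had the highest mean level of the list in every group, at 1003 CPM per kilobase in MEFs, 616 in CiSCs and 674 in MSCs. Oasl2 ranked 12 of 34 in MEFs with 11.03 CPM per kilobase, 4 in CiSCs with 34.9 and 2 in MSCs with 566. At the other end, Mx1 ranked 33 in MEFs and CiSCs and 34 in MSCs, and Oas3 was last in CiSCs at 0.0769 CPM per kilobase. Summed over the 34 genes, the level was 1335 and 2086 CPM in MEFs, 1148 and 1141 in CiSCs, and 4247 and 3954 in MSCs. Oasl2 made up a large part of the MSC sum, and without it the sums were 1310 and 2042, 1051 and 1020.4, and 2215 and 2451 CPM. The groups did not overlap in either sum.

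Upstream of the list, few interferon genes could be read. Of 18 listed interferon genes, 5 had an identifier in the files and none had enough counts to be tested; the others were not analysed here. Ifnz had between 0 and 20.1 reads in a library, Ifna1 had 3 reads and Ifnab 1 in a CiSC library, Ifnk had 1 in an MSC library, and Ifna9 had 0 in all, which allows up to 3 reads or 0.0769 CPM over the MEF group, 0.0709 over CiSCs and 0.0806 over MSCs. Such limits cover counting error only, and a difference in ligand RNA was not detectable at this depth. The shares of all tested genes to set beside the counts below are 22.5% higher and 20% lower in MSCs against MEFs, and 19.6% higher and 21.3% lower in CiSCs against MEFs. Of 11 receptor and proximal signalling genes, 3 were higher and 5 lower in MSCs than in MEFs, and 1 was higher and 6 lower in CiSCs than in MEFs. The interferon gamma receptor subunit Ifngr2 and the shared receptor subunit Il10rb were lower in MSCs (-1.48 ± 0.19 and -0.70 ± 0.20, adjusted p = 0.00122 and 0.0299) and in CiSCs (-1.0 ± 0.18 and -1.44 ± 0.20, adjusted p = 0.0062 and 0.00192). Ifnlr1, the receptor for interferon lambda, rose in both at low levels, from 0.202 and 0.312 CPM in MEFs to 3.72 and 2.99 in CiSCs and 1.54 and 2.499 in MSCs.

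A further list held 16 tested genes for sensing and signalling upstream of interferon, with adaptors and kinases beside the receptors. Of these, 2 were higher and 9 lower in MSCs than in MEFs (22.5% and 20% of all tested genes). In CiSCs against MEFs, 0 were higher and 8 lower (19.6% and 21.3% of all tested genes). The endosomal receptor gene Tlr7 stood at 105 and 85.5 CPM in MEFs, 0.191 and 0.0936 in CiSCs, and 14.9 and 11.5 in MSCs. Tlr9 was at 8.30 and 9.41 CPM in MEFs, at 0 and 0.0936 in CiSCs and at 0.638 and 0.869 in MSCs, and their chaperone Unc93b1 was also highest in MEFs (164 and 216 CPM) and lowest in CiSCs (28.5 and 27.3). These receptors are known from macrophages and other leukocytes. Tlr3, which is common in stromal and Sertoli cells, instead followed the order of the list, with 10.9 and 9.51 CPM in MEFs, 3.53 and 3.70 in CiSCs, and 15.1 and 16.5 in MSCs (0.63 ± 0.17, adjusted p = 0.0256, and -1.49 ± 0.18, adjusted p = 0.00106, against MEFs).

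Another 7 tested genes were interferon regulatory factors outside the list and the corepressors Irf2bp1 and Irf2bp2. Of these, 0 were higher and 4 lower in MSCs than in MEFs by edgeR (22.5% and 20% of all tested genes). In CiSCs against MEFs, 0 were higher and 4 lower (19.6% and 21.3% of all tested genes). Irf8, a factor of myeloid cells, was at 50.4 and 71.2 CPM in MEFs, 0.906 and 1.73 in CiSCs, and 19.2 and 19.8 in MSCs, and Irf5 at 44.4 and 47.0, 2.85 and 3.04, and 20.2 and 20.5 CPM. Irf1, a mediator of the interferon gamma response, fell in MSCs by 1.36 ± 0.20 and in CiSCs by 2.36 ± 0.21 on the log2 scale (adjusted p = 0.00227 and 0.000261). The corepressor gene Irf2bp2 fell in MSCs (-1.29 ± 0.17, adjusted p = 0.00151) but did not pass in CiSCs (-0.48 ± 0.17, adjusted p = 0.0612). Among 12 negative regulators and nucleases, 3 were higher and 3 lower in MSCs (22.5% and 20% of all tested genes), and 0 were higher and 6 lower in CiSCs (19.6% and 21.3% of all tested genes). Socs3, an inhibitor of cytokine receptor signalling, stood at 57.8 and 61.2 CPM in MEFs, 24.7 and 25.0 in CiSCs, and 166 and 162 in MSCs. The leukocyte phosphatase gene Ptpn6 stood at 100.5 and 205, 0.334 and 0.608, and 12.1 and 9.24 CPM in the same order. The exonuclease gene Isg20 rose in MSCs (1.32 ± 0.30, adjusted p = 0.0128) and fell in CiSCs (-1.24 ± 0.31, adjusted p = 0.0201), and Samhd1, which depletes nucleotides, fell in CiSCs (-1.41 ± 0.12, adjusted p = 0.000276) and did not pass in MSCs (0.16 ± 0.12, adjusted p = 0.32).

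Other known targets were counted in the same way. Of 18 tested GTPase and antigen presentation regulators that respond to interferon gamma, 12 were higher and 2 lower in MSCs than in MEFs (22.5% and 20% of all tested genes), and 2 were higher and 6 lower in CiSCs than in MEFs (19.6% and 21.3% of all tested genes). The immunity-related GTPase gene Iigp1 was at 1.88 and 2.21 CPM in MEFs, 4.85 and 4.19 in CiSCs, and 29.9 and 33.8 in MSCs, so that it rose in both (3.95 ± 0.20 and 1.14 ± 0.20, adjusted p = 3.43e-05 and 0.00523). Irgm1 rose in MSCs (1.67 ± 0.14, adjusted p = 0.000209) and did not pass in CiSCs (-0.10 ± 0.14, adjusted p = 0.572), whereas Ifi47 rose in MSCs (1.71 ± 0.17) and fell in CiSCs (-2.87 ± 0.20, adjusted p = 0.000414 and 0.000107). Nlrc5, the activator of MHC class I genes, was highest in MEFs, at 16.9 and 14.8 CPM against 0.763 and 0.374 in CiSCs and 5.69 and 5.27 in MSCs. Of 60 further interferon-stimulated genes tested, 27 were higher and 6 lower in MSCs (22.5% and 20% of all tested genes), and 1 was higher and 37 lower in CiSCs (19.6% and 21.3% of all tested genes), against MEFs. Their medians were 0.58 and -0.997 on the log2 scale, against 0.01 and -0.00 over all tested genes. Trim30a stood at 35.7 and 24.1 CPM in MEFs, 0.590 and 0.720 in CiSCs, and 64.8 and 63.1 in MSCs, and the helicase gene Ddx60 at 4.20 and 4.31, 0.763 and 0.982, and 19.1 and 20.2 CPM. Apol9a, at 7.62 and 8.77, 0.668 and 0.694, and 22.6 and 25.3 CPM, had the same order, while Trim14 did not pass between MSCs and MEFs (0.08 ± 0.22, adjusted p = 0.783) and fell in CiSCs by 5.26 ± 0.31 (adjusted p = 5.52e-05). The Apol9, Trim30, Ifit, Oas and GBP families hold near-identical copies, and 21 of the 34 members had values that were not whole numbers, so single values in these families depend on how reads were shared out.

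Markers of other cells differed between the groups in the same libraries. Summed over 18 leukocyte markers, most of them macrophage genes, the level was 13642 and 22661 CPM in MEFs, 59.9 and 77.1 in CiSCs, and 1655 and 1576 in MSCs. All 18 were lower in CiSCs than in MEFs (21.3% of all tested genes), with log2 fold changes from -10.11 to -3.31. All 18 were also lower in MSCs than in MEFs (20% of all tested genes), with log2 fold changes from -4.33 to -2.53. None of the 18 was at 0 reads in a group. In CiSCs against MEFs, leukocyte markers and the interferon-stimulated genes were thus both lower, and the part of the one in the other was not tested. In MSCs against MEFs they moved in opposite directions, with the leukocyte sum 11.2-fold higher in MEFs and the sum of the 34 genes 2.40-fold higher in MSCs, or 1.39-fold without Oasl2. In such bulk RNA, fewer cells of a type and less RNA per cell cannot be told apart.

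Markers of plasmacytoid dendritic cells, the specialised interferon producers, and of lymphocytes were near 0. The plasmacytoid markers had at most 18.7 reads in a library (Cox6a2, with Siglech at 1 to 2.19 reads in a group) and the lymphocyte markers at most 9 (Cd79a). The Sertoli markers summed to 120.1 and 119 CPM in MEFs, 4917 and 4191 in CiSCs (mostly Clu, at 4734 and 4020.2), and 6433 and 9284 in MSCs. Of 13 tested, 5 were higher and 0 lower in CiSCs than in MEFs (19.6% and 21.3% of all tested genes). The 5 were Clu, Wt1, Cldn11, Krt18 and Kitl. In CiSCs against MSCs 0 were higher and 11 lower (17.7% and 25.1% of all tested genes). Gata4, a defining Sertoli and gonadal gene, had 6 reads in MEFs, 4 in CiSCs and 9386 in MSCs. Steroidogenic Leydig cell markers summed to 11.6 and 13.2 CPM in MEFs, 12.3 and 11.3 in CiSCs, and 2049 and 2040 in MSCs. Of 9 listed Leydig markers 6 were tested, and all 6 were higher in MSCs than in MEFs (22.5% of all tested genes). Cyp11a1, Hsd3b1, Insl3 and Akr1cl had 0 to 8 reads in MEFs and 0 to 4 in CiSCs. These genes thus passed the filter through MSCs alone, and their direction was fixed by that. The untested Cyp17a1, Lhcgr and Hsd17b3 had 1, 3 and 0 reads in MSCs. Endothelial markers summed to 236 and 163 CPM in MEFs, mostly Flt1 at 169 and 84.2, to 32.96 and 36.4 in CiSCs, and to 135 and 141 in MSCs. Of the 10 tested, 7 were higher and 3 lower in MSCs than in MEFs (22.5% and 20% of all tested genes). The junction gene Cdh5 stood at 0.708 and 0.520 CPM in MEFs and 55.9 and 57.9 in MSCs. In CiSCs against MEFs 2 of the 10 were higher and 6 lower (19.6% and 21.3% of all tested genes). Peritubular myoid markers summed to 3784 and 3365 CPM in MEFs, 1742 and 1572 in CiSCs, and 4059 and 3862 in MSCs. Of these 8 markers, 7 were lower and 1 higher in CiSCs than in MEFs (21.3% and 19.6% of all tested genes). In MSCs against MEFs 3 were higher (22.5% of all tested genes). In CiSCs against MSCs 8 were lower (25.1% of all tested genes). The part of these markers in the differences of the interferon-stimulated genes was not tested. Which cells in MSCs carried the interferon-stimulated RNA was not tested.

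**Figure D4:**
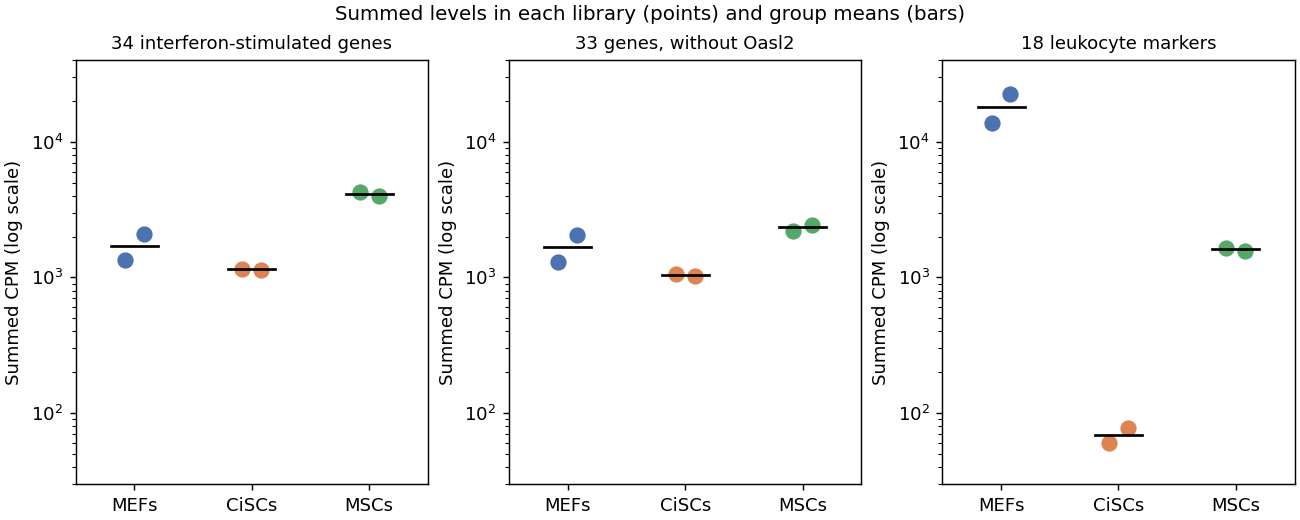
Summed CPM (log scale) in each library (points) and group means (bars) of the 34 interferon-stimulated genes, of the 33 without Oasl2 and of 18 leukocyte markers. The interferon-stimulated genes are highest in MSCs, at 4247 and 3954 CPM, whereas the leukocyte markers are highest in MEFs, at 13642 and 22661 CPM; both are lowest in CiSCs.

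The MEF libraries differed from each other in the list. Of the 34 genes, 25 were higher in the second MEF library, 15 of them by at least 1.5-fold, against 14.1% of all genes read in both libraries. The median ratio was 1.46, against 1.01 over all genes, with Zbp1 at 2.72, Irf7 at 2.60 and Isg15 at 2.48. Ifi44 went the other way, at 0.659. The sum of the leukocyte markers was 1.66 times as high in the same library, and its part in the difference was not tested. A lean to the second library was not particular to MEFs, since 25 of the 34 genes were higher there in CiSCs and 28 in MSCs. In these 2 groups the replicates lay closer, with medians of 1.07 and 1.12, against 0.998 and 0.995 over all genes read in both libraries. In them 1 and 0 genes were at least 1.5-fold higher in the second library, against 4.87% and 4.22% of all such genes.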

How the data were processed

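The authors deposited 1 table per library with expected counts per gene under Entrez Gene identifiers (per the file headers, read counts); 42.0% to 43.8% of values were not whole (tolerance 1e-09), and whether they had been normalised was not tested. Per the submitters' processing notes, HISAT and the mouse build mm9 were used; the counting program, annotation, strand and filters are not given in the sources used here. Symbols came from a RefSeq table of GRCm38, which matched 18891 of 20007 identifiers. Members and gene lists were chosen with earlier results of these data known.

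Rounded values went into edgeR 4.0.16 under R 4.3.3: default low-count filter, TMM scaling, 1 mean per group over all 6 libraries, 3 residual degrees of freedom, two-sided quasi-likelihood F tests, Benjamini-Hochberg adjusted p under 0.05 over 15272 genes. The standard error is the log2 fold change divided by the root of F. The procedure was tested on simulated data. All 34 members are named; of every other list, up to 4 genes with the smallest adjusted p, or the 2 highest where none was called. A gene that this rule names is not reported here. Pathway lists got counts and medians only. Alternatives were leaving out each library, the replicate number as a block, 2 groups only, other scalings, DESeq2 1.42.0, 2 other filters, an adjusted p under 0.01 and a test against a fold of 1.5. Promoter sequences were credited to RefSeq (GRCm38.p6).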

Additional observations from a re-analysis of the deposited data

How the results depend on the processing

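Of the 34 genes, those called under each of the 15 alternatives numbered 9 for CiSCs against MEFs, 13 for MSCs against MEFs and 23 for CiSCs against MSCs. Such calls were not counted over all genes. Leaving out 1 library at a time gave 10 to 27 genes lower and 1 to 2 higher in CiSCs against MEFs, 14 to 28 higher and 0 to 5 lower in MSCs against MEFs, and 0 to 1 higher in CiSCs against MSCs. Over all genes it gave 1473 to 4646 higher and 1922 to 4841 lower, 2094 to 4957 higher and 1422 to 4788 lower, and 1343 to 4238 higher. The lone library of a group was then assumed to vary like the others. It turned the direction of uncalled values. For CiSCs against MEFs these were Ifih1 (-0.39 to 0.16), Mx2 (-0.16 to 0.29) and Eif2ak2 (-0.078 to 0.15). For MSCs against MEFs they were Ifit3 (-0.63 to 0.013), Oas1a (-0.089 to 0.51), Mx1 (-0.049 to 0.51), Bst2 (-0.59 to 0.55), Ifi35 (-0.76 to 0.085) and Trim14 (-0.039 to 0.18), and for CiSCs against MSCs Ifit2 (-0.044 to 0.13). Scaling by total counts, chosen after seeing the data, moved the median of all genes by 0.116, -0.113 and 0.237 in the 3 comparisons. It gave 1 gene lower in MSCs than in MEFs (Ifit2), 1 higher in CiSCs than in MSCs (Ifi27), 4241 of all genes higher in CiSCs than in MSCs and a median of -2.25 there, with Irgm1 at 0.020 in CiSCs against MEFs, Trim14 at -0.031 in MSCs against MEFs and Ifitm3 at 0.11 in CiSCs against MSCs. With only CiSCs and MSCs in the fit, 1 of the 34 (Ifi27) and 4445 of all genes were higher in CiSCs, and Bst2, Ifi35 and Ifit3 gained a call as lower. An adjusted p under 0.01 left 1707 genes higher and 2067 lower in CiSCs against MEFs, 1712 lower in MSCs against MEFs and 1577 higher in CiSCs against MSCs; testing against a fold of 1.5 left 1647, 2017, 1627 and 1481. The summed level was 1244 CPM in CiSCs and 3778 in MSCs without TMM scaling, and 1036 and 2333 without Oasl2. Apart from stricter thresholds and fewer libraries, the cause was not tested.

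With the replicate number as a block, 20 of the 34 genes were lower in CiSCs than in MEFs (Ifi44 lost, Bst2 gained), 19 were higher in MSCs than in MEFs (Ddx58, Parp14 and Trim25 lost), and 29 were lower in CiSCs than in MSCs (Ifit3 gained). In the main fit, without the block, the shares of all tested genes were 21.3%, 22.5% and 25.1%. Those under the block are not given here. Each group has 2 numbers, and deviations of same-numbered libraries correlated at -0.21, 0.14 and -0.13 over 15272 genes. Such correlations over all genes cannot show whether same-numbered libraries share a batch that acts on the 34 genes. Of the 34, 25 were higher in the second library in MEFs, 25 in CiSCs and 28 in MSCs. Over all genes the median ratio of the second to the first library was 1.01, 0.998 and 0.995. A shared batch was not tested for them.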
